A study of Homo sapiens with 22 samples.

Results

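Of 230774 stretches of open chromatin found in sorted WM989 melanoma cells, 4127 carried a peak in at least 7 of the 9 libraries of cells sorted for high EGFR, high NGFR or both, and in none of the 3 libraries of the remaining sort. These 4127 regions, 1.79% of all, are called members below. They were found by merging the distinct peak intervals of all 12 ATAC-seq libraries wherever at least 1 base overlapped, and then counting the libraries with a peak in each merged region. The members were chosen by the presence or absence of a peak, so their presence in the marker-high sorts and their absence from the other sort are a description and not a result.

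WM989 is a human melanoma cell line with an activating BRAF mutation, grown here from a single-cell subclone, and a rare subset of its cells is in a primed state that survives BRAF and MEK inhibition. The study sorted untreated WM989 cells into 4 populations of 3 libraries each, namely Mix, EGFR-High, NGFR-High and the double-positive EGFR-NGFR-High, and measured chromatin accessibility by ATAC-seq, in which a transposase inserts sequencing adapters into open DNA. Mix is the name in the labels, whereas the methods describe the fourth sort as negative for both markers. The EGFR-High and NGFR-High cells were the upper tail of their stain, so EGFR and NGFR themselves are no finding between sorts. Genes close to members were followed in single-cell RNA-seq of untreated WM989 cells labelled primed or drug-susceptible by the authors, of the same states in WM983B, another melanoma line, and of WM989 cells split over an untreated Control, recombinant TGFB1, the TGF-beta receptor inhibitor LY2109761 (TGFBRi) or the PI3K inhibitor GDC-0941 (PI3Ki), each in replicates r1 and r2. The sample labels call the libraries of a treatment Mix and Primed instead, and no source used here ties these names to r1 or r2.

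Many stretches of open chromatin away from gene starts are candidate enhancers, short DNA elements on which transcription factors assemble and from which they act on promoters at a distance. Enhancer activity was not measured here. AP-1, a dimer of FOS and JUN family proteins, and the TEAD factors with their coactivators YAP1 and WWTR1 bind such elements in invasive, dedifferentiated melanoma cells. SOX10 and MITF, which binds E-box and M-box sequences, hold the melanocytic programme of pigment genes.

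The sequences of 8 members are shown because they hold the AP-1 and TEAD letters on which the sequence results turn. LPIN1, FOXL1, DNAJC6 and MYEOV name the nearest genes of members among the highest peaks, ST8SIA1 is a gene with several members, PDGFA and FGF1 encode growth factors, and the TACC2 member lies 743 bases from a transcription start. Each line gives 200 bases around the summit of the member's highest peak, on the plus strand of hg38, 5′ to 3′, and capitals mark TGANTCA (AP-1) or GGAATG (TEAD) on either strand, where N is any base.
LPIN1 region, chr2:12059984-12060183: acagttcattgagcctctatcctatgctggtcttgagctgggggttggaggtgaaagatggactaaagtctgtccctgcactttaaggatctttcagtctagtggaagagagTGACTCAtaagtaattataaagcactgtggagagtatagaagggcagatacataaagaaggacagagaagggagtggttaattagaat
FOXL1 region, chr16:86772740-86772939: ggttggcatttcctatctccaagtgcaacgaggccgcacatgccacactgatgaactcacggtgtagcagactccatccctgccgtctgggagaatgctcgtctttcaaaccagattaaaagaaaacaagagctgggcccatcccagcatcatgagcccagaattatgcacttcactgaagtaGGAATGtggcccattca
DNAJC6 region, chr1:65260979-65261178: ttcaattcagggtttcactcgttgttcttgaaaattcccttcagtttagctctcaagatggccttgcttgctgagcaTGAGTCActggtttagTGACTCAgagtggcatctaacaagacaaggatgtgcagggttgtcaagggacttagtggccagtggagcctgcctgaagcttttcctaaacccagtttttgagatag
MYEOV region, chr11:69322071-69322270: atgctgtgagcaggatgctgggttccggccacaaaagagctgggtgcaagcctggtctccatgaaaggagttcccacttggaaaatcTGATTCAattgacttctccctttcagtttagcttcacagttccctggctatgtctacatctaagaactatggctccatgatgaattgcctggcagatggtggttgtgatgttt
ST8SIA1 region, chr12:22275963-22276162: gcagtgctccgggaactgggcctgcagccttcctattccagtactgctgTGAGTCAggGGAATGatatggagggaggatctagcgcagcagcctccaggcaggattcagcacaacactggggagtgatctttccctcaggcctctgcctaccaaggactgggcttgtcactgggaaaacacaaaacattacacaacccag
PDGFA region, chr7:543282-543481: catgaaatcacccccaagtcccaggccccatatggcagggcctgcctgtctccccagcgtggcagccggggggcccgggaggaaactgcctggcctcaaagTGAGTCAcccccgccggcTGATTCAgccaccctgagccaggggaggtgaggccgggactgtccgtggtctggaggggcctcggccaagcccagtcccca
FGF1 region, chr5:142726446-142726645: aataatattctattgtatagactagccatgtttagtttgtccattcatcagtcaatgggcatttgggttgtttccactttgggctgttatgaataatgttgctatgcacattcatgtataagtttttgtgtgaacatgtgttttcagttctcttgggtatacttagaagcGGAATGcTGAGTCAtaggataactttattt
TACC2 region, chr10:122127357-122127556: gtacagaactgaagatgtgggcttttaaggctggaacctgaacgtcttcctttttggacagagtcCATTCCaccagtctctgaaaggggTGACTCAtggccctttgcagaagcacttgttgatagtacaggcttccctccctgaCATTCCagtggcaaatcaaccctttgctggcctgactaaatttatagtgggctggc
AP-1 letters lay beside TEAD letters in the ST8SIA1 and FGF1 members, and 2 AP-1 matches stood close together in the DNAJC6 and PDGFA members. A match is a description of the letters and no measure of binding.

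Depth of the ATAC libraries is unknown because only peak lists were used, so its part in the members was not tested. The number of distinct peak intervals is given instead and is no measure of depth. It ran from 148575 to 180941 per library, and the Mix libraries, at 148575 to 165656, overlapped the EGFR-High libraries, at 149008 to 166985. NGFR-High libraries held 159891 to 171428 intervals and EGFR-NGFR-High libraries 162436 to 180941. The same rule turned on another sort found fewer regions. Absence from all 3 EGFR-High libraries with a peak in at least 7 of the other 9 held for 1108 regions, against 392 for NGFR-High and 183 for EGFR-NGFR-High.

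Fewer members had a peak in EGFR-High than in the other marker-high sorts, which overlapped. These presences are what the rule counted and are given as a description. A peak was listed in 4101, 3967 and 3811 of the 4127 members in the EGFR-NGFR-High libraries 1 to 3, in 4021, 3645 and 3746 in the NGFR-High libraries, and in 3283, 3284 and 2837 in the EGFR-High libraries. All 3 EGFR-High libraries lay below every library of the other marker-high sorts. In all, 1302 members (31.5%) had a peak in 9 of 9 libraries, 1202 (29.1%) in 8 and 1623 (39.3%) in 7.

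Peak height is given as fold enrichment, the pileup of a peak over the local background as the peak caller wrote it. Member peaks were low. Their median fold enrichment was 5.55, 5.20 and 4.89 in the EGFR-High libraries, 6.76, 5.69 and 5.64 in the NGFR-High libraries and 8.03, 6.14 and 5.95 in the EGFR-NGFR-High libraries, or 5.21 ± 0.327, 6.03 ± 0.633 and 6.71 ± 1.15 (mean of library medians ± SD, n = 3) by sort. EGFR-High lay below the other sorts in every library, whereas NGFR-High and EGFR-NGFR-High overlapped. Regions open in all sorts, that is with a peak in at least 7 of 9 marker-high and all 3 Mix libraries (87842 regions), had library medians of 12.4 to 16.7, and there too the EGFR-High libraries, at 12.4 to 13.2, lay below the other marker-high libraries, at 13.9 to 16.7. The lowest fold enrichment that any library listed was 2.68 to 3.14, so the members lay nearer to the floor of the lists. Whether the Mix cells lacked accessibility at a member or had it below the caller's threshold cannot be told apart, nor can more open cells in a sort and more opening in each cell.

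**Figure D1:**
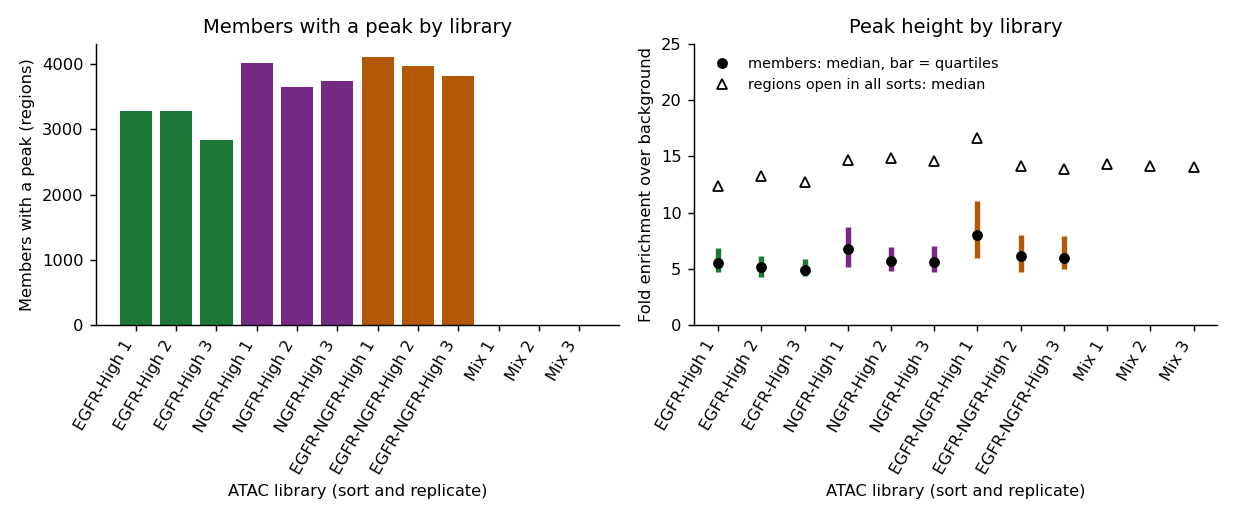
Left, the number of the 4127 members with a peak in each ATAC library. Right, the median fold enrichment of member peaks (points, with quartiles as bars) and of regions open in all sorts (open triangles) per library. EGFR-High libraries held 2837 to 3284 members and the other marker-high libraries 3645 to 4101, and the absence of members from Mix is set by the rule.

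Peak heights just inside the threshold were close to those just outside it. The 1623 members with 7 of 9 marker-high libraries and no Mix library had a median of the regions' median fold enrichments of 5.20, against 5.01 for the 2358 regions with 6 of 9 and no Mix library, and 5.17 for the 1356 regions with 7 of 9 and 1 Mix library. In the last group the single Mix peak had a median fold enrichment of 4.71. Members were 447 bases wide at the median (quartiles 345 and 579) and regions open in all sorts 727.

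The highest members reached a median fold enrichment of 23.3 over the libraries with a peak. This was a region at chr2:12059564-12060579, intergenic and 272954 bases from the start of LPIN1, with 15.4, 15.1 and 16.6 in EGFR-High, 31.8, 24.5 and 19.3 in NGFR-High and 34.8, 32.6 and 23.3 in EGFR-NGFR-High. EGFR-High was lowest, and the other sorts overlapped. Next came regions nearest FOXL1 (22.3), ZFP36L2 (21.8), DNAJC6 (20.6), C20orf85 (19.2), MYEOV (18.4) and IGF2BP3 (17.9). The DNAJC6 member (chr1:65260822-65261466) lay in an intron, 3615 bases from the start of this clathrin-uncoating cofactor gene, with fold enrichments of 14.1, 11.8 and 14.2 in EGFR-High, 33.4, 20.6 and 20.7 in NGFR-High and 34.2, 22.7 and 19.4 in EGFR-NGFR-High. A member with 4 AP-1 matches (chr2:237097595-237098542, fold enrichment 16.9), the most among the 15 highest, lay nearest COPS8, a subunit of the COP9 signalosome, and overlapped a UTR. Its fold enrichments were 8.54, 5.67 and 7.34 in EGFR-High, 21.5, 16.2 and 16.9 in NGFR-High and 36.004, 21.3 and 20.3 in EGFR-NGFR-High, again with EGFR-High apart from the rest. Others of the 15 highest did not follow this order. The member nearest IGF2BP3, an RNA-binding protein gene, had 26.5, 18.0 and 14.7 in EGFR-High and 16.3, 14.4 and 12.7 in NGFR-High, and that nearest COL1A2, a fibrillar collagen gene, 21.8, 17.5 and 16.6 against 14.3, 12.7 and 16.9.

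Some members lay close to a gene start. The highest of these (chr3:149702795-149703439) lay 40 bases from an annotated start of WWTR1, the TEAD coactivator also called TAZ, with fold enrichments of 18.4, 8.98 and 8.81 in EGFR-High, 17.1, 11.4 and 12.7 in NGFR-High and 21.7, 16.5 and 17.9 in EGFR-NGFR-High, so that the sorts overlapped. Another (chr15:67125297-67126005, 29 bases) sat at a start of SMAD3, the transducer of TGF-beta receptors, and was low, at 4.73 to 5.12 in EGFR-High, 4.77 to 5.64 in NGFR-High and 5.95 to 8.51 in EGFR-NGFR-High. Both genes have several starts, and which transcript a start belongs to was not resolved.

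Members lay away from gene starts. Only 135 members (3.27%) had their summit within 1 kb of the start of a protein-coding gene, against 15.8% of regions open in all sorts and 9.78% of all regions, and the median distance was 40312.5 bases against 22390 and 25561. The 1609 regions with a peak in all 3 Mix and at most 2 marker-high libraries, called Mix-only regions here, were as distant, with 2.73% within 1 kb. By annotation, 2142 members (51.9%) were intergenic, 1875 (45.4%) intronic, 88 in UTRs and 22 in coding exons. Against the starts of all annotated genes, noncoding ones included, 8.67% of members lay within 1 kb, as did 23.5% of regions open in all sorts, 9.07% of Mix-only regions and 17.4% of all regions.

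Among the letter patterns searched, AP-1 was the one found in most members. TGANTCA was found on either strand in the 200 base window of 1702 members (41.2%), against 16.6% of regions open in all sorts, 12.1% of Mix-only regions and 16.7% of all 230774 regions. The same letters reversed (ACTNAGT), which have the same composition and can share letters with an AP-1 match, were found in 7.97% of members, 4.82% of regions open in all sorts and 5.21% of all regions. Members over 1 kb from a start held AP-1 in 41.7%, regions open in all sorts at that distance in 18.6% and Mix-only regions in 12.2%. Among regions that far from a start and of the same height as the middle 50% of members, a band chosen after the data were seen, the shares were 41.9% in members, 31.6% in regions with a peak in 1 to 6 marker-high libraries and none in Mix, 22.3% in regions with at least 7 marker-high and 1 or 2 Mix libraries, and 13.9% in regions open in all sorts. Regions are not replicates, so no test was made of these shares.

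Among regions over 1 kb from a start and with no Mix library, the share with AP-1 was higher at more marker-high libraries. It was 14.6% at 1 of 9 marker-high libraries, 25.8% at 3, 36.7% at 6, 39.2% at 7 and 43.8% at 9. At 9 of 9 it was 38.9% with 1 Mix library, 29.0% with 2 and 19.3% with all 3. The order did not hold throughout. Regions of Mix libraries alone held AP-1 in 8.76%, 9.02% and 11.7% at 1, 2 and 3 Mix libraries, and with 3 Mix libraries the share was 12.9% at 2 marker-high libraries and 10.6% at 3. With the regions near starts included, those with a peak in all 12 libraries held AP-1 in 16.9%. These classes use the same peak calls as the rule.

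**Figure D2:**
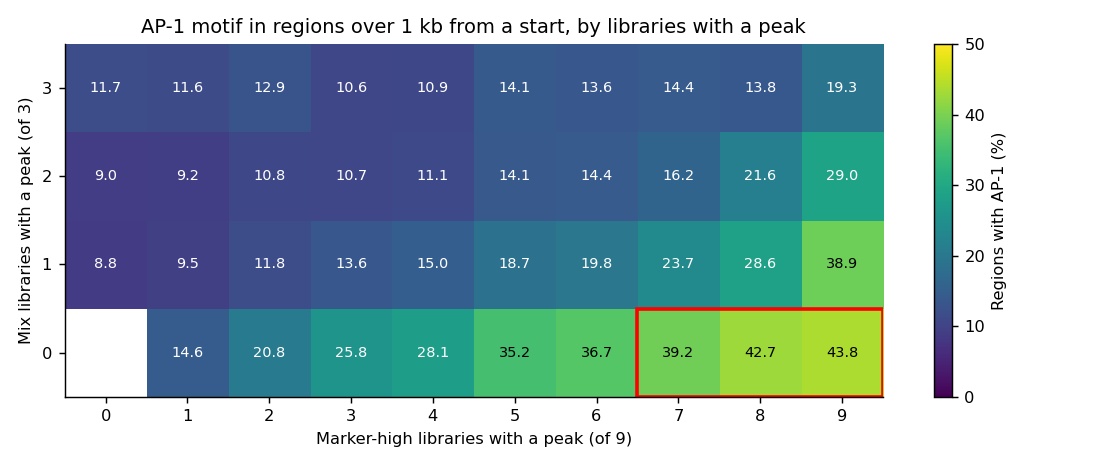
Percent of the regions over 1 kb from a start whose 200 base window holds TGANTCA, by the number of marker-high libraries (of 9, horizontal) and Mix libraries (of 3, vertical) with a peak; the red frame encloses the members at that distance. The share is 39.2% to 43.8% inside the frame and 19.3% where all 12 libraries had a peak.

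AP-1 letters clustered at the summits. The members held 2017 matches in their windows, 43.9% of them within 25 bases of the summit, at a median distance of 30 bases. In regions open in all sorts 36.9% of the matches lay as close, and in Mix-only regions 32.2%. The share of members with AP-1 also climbed with peak height. Over 10 equal groups of members by median fold enrichment it went from 26.9% in the lowest to 55.9% in the highest. The reversed letters ACTNAGT were in 6.30% of the lowest group and 11.1% of the highest, with 4.37% to 10.9% in the groups between. Members with an AP-1 match had a median fold enrichment of 6.25 against 5.56 without. At least 2 matches were present in 272 members (6.59%) and in 1.84% of regions open in all sorts.

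TEAD letters (GGAATG) were found in 22.0% of members, 14.8% of regions open in all sorts, 12.9% of Mix-only regions and 15.1% of all regions. Their share did not climb with height, at 20.3% to 24.03% over the same 10 groups. Over 1 kb from a start, their share in members was 1.38 times that in regions open in all sorts. For the reversed AP-1 letters this ratio was higher, at 1.52. At that distance and with no Mix library, TEAD was in 23.2% at 6 of 9 marker-high libraries and 20.8% to 23.6% at 7 to 9. With 1 Mix library it was in 19.6%, 19.8% and 22.2% at 7, 8 and 9. In the height band used for AP-1 it was in 21.7% of members and 14.9% of regions open in all sorts. There it was in 18.0% with at least 7 marker-high and 1 or 2 Mix libraries, and 17.0% with 1 to 6 and none. AP-1 and TEAD letters occurred together in 319 members (7.73%), against 2.77% of regions open in all sorts. In members this was below the product of the single shares, 41.2% for AP-1 and 22.0% for TEAD. The joint share thus shows no pairing of the letters beyond their single shares.

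**Figure D3:**
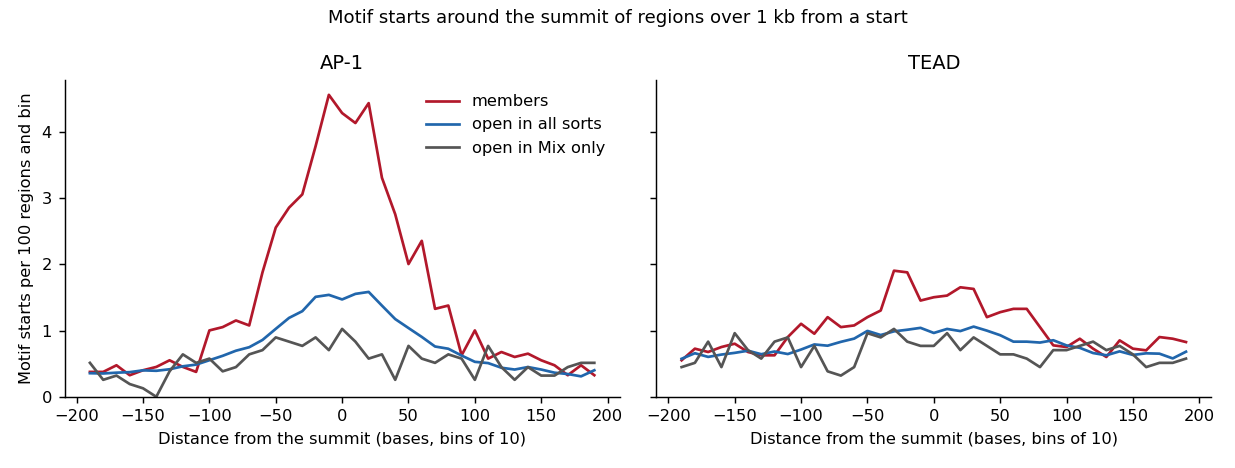
AP-1 and TEAD matches per 100 regions in bins of 10 bases, against the distance from the summit (bases). A match is placed at its middle, which the axis calls its start. Shown are members, regions open in all sorts and Mix-only regions over 1 kb from a start. AP-1 matches pile up at the summits of members. Over all members, those near starts included, 43.9% of the matches in the window lay within 25 bases. Near the summit TEAD matches are more frequent in members than in the other classes shown, with a lower peak than AP-1.

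The letters of the melanocytic factors showed the opposite order. The SOX letters ACAAAG were in 17.4% of members, 22.1% of regions open in all sorts, 28.3% of Mix-only regions and 20.02% of all regions. ACAATG, also a SOX motif, followed with 11%, 14.2%, 18.3% and 13.6%. The M-box TCATGTG, whose first bases can share the TCA of an AP-1 match, was in 3.804%, 5.02%, 7.77% and 4.83%. These shares were close to those of the 72402 regions with a peak in 1 to 6 marker-high libraries and none in Mix, at 17.3%, 12.3% and 4.02%. Letters of promoter and architectural factors were less frequent in members than in regions open in all sorts. CTCF, the factor of loop anchors, was matched in 2.302% of members, 14.3% of regions open in all sorts and 8.68% of all regions, KLF/SP GGGCGG in 3.804%, 14.6% and 8.58%, and ETS CCGGAAG in 0.339%, 3.23% and 1.73%. In Mix-only regions the same letters were in 5.78%, 3.17% and 0.808%, and in the regions with 1 to 6 marker-high libraries and none in Mix in 3.65%, 4.72% and 0.754%. Away from starts, KLF/SP fell to 3.28% in members and 6.94% in regions open in all sorts, while CTCF stayed at 2.31% and 14.3%. RUNX TGTGGTT was in 9.57%, 8.76% and 7.74%, in 11.5% of Mix-only regions and in 6.43% of regions with 1 to 6 marker-high libraries and none in Mix. Members were poorer in G and C, with a median GC content of 43.5% against 48.0% in regions open in all sorts, 46.5% where these lay over 1 kb from a start, and 45.0% in Mix-only regions.

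The sorts within the marker-high cells were then compared at the 1302 members with a peak in all 9 marker-high libraries, out of 83780 such regions, by limma on log2 fold enrichment centred on each library's median. The Mix libraries took no part in this fit. Of the 83780 regions, 78272 had a peak in all 12 libraries. Regions open in all sorts were higher, with a median fold enrichment of 13.7 against 7.05 in these members. Calls were not counted apart for other regions of the members' height. For EGFR-NGFR-High minus EGFR-High, limma with Benjamini-Hochberg adjustment over all regions called 44 members higher and 3 lower (3.38% and 0.230% of the 1302), against 0.319% and 0.0418% of all regions. The median log2 difference was 0.23 in members and −0.06 over all regions. For EGFR-High minus NGFR-High, 10 members were higher and 19 lower (0.768% and 1.46%), against 0.292% and 0.297% of all regions, with medians of −0.04 and 0.03. For EGFR-NGFR-High minus NGFR-High no member was called in either direction, nor any region (0% of all); at an unadjusted limma p under 0.05 there were 269 members (20.7%), against 6.57% of all regions, and the median log2 difference was 0.23 in members and −0.02 over all regions.

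With the replicate number as a block, 82 members were higher and 5 lower for EGFR-NGFR-High minus EGFR-High, beside 449 and 71 over all regions. For EGFR-High minus NGFR-High the block gave 32 and 52, beside 460 and 521. The calls made without the block rested on few libraries. Without EGFR-High 1 or 2, or any of the 3 EGFR-NGFR-High libraries, none of the 44 calls was made. Over all 83780 regions 1 was called higher without EGFR-High 1 and 0 without each of the others. The median log2 difference in these fits was 0.17 to 0.32 in members and −0.08 to −0.05 over all regions. Without EGFR-High 3, NGFR-High 2 or NGFR-High 3 there were 1, 14 and 29 members called higher, beside 4, 96 and 173 over all regions. Leaving out any of the 9 libraries in turn gave 0 to 6 members higher and 0 to 12 lower for EGFR-High minus NGFR-High, with none in either direction without EGFR-High 2, beside 6 to 144 and 2 to 182 over all regions. The median log2 difference in members for this contrast turned from −0.04 to 0.09 without NGFR-High 1 and to 0.02 without EGFR-High 2, and was −0.28 without centring. For EGFR-NGFR-High minus NGFR-High, 162 members had an unadjusted limma p under 0.05 without NGFR-High 2 and 171 without EGFR-NGFR-High 1, beside 4385 and 4969 of all regions. Without centring, which shifted the median of all regions from 0.03 to −0.21 in EGFR-High minus NGFR-High and from −0.06 to 0.20 in EGFR-NGFR-High minus EGFR-High, the counts were 10 higher and 102 lower, and 255 higher and 1 lower, while those over all 83780 regions were 125 and 2139, and 2817 and 14.

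The members that were lowest in EGFR-High against another sort lay outside exons, 1931 to 108198 bases from a start. The region nearest CD28 (chr2:203759074-203760278), a T cell costimulatory receptor gene 53200 bases away, had fold enrichments of 4.70, 4.26 and 3.92 in EGFR-High, 22.7, 16.2 and 16.0 in NGFR-High and 21.7, 18.0 and 12.9 in EGFR-NGFR-High. It held 1 AP-1 and 1 TEAD match, and the EGFR-High libraries lay far below the rest. Its log2 difference EGFR-High minus NGFR-High was −1.84 (SE 0.19, limma with Benjamini-Hochberg adjustment, adjusted p = 0.0116). An intronic region of the adenylyl cyclase gene ADCY1 (chr7:45682548-45683595) differed by −1.69 (SE 0.20, limma Benjamini-Hochberg adjusted p = 0.0128), with 3.31 to 4.41 in EGFR-High, 12.2 to 16.3 in NGFR-High and 12.8 to 22.6 in EGFR-NGFR-High. A region 1931 bases from WNT5B, a noncanonical Wnt ligand gene, differed by −1.37 (SE 0.25, limma Benjamini-Hochberg adjusted p = 0.0379), at 2.99 to 5.67 against 11.3 to 15.9 in NGFR-High. EGFR-NGFR-High exceeded EGFR-High most in the ADCY1 region, by a log2 difference of 1.88 (SE 0.20, limma Benjamini-Hochberg adjusted p = 0.0296), in the CD28 region and in an intron of RGS6, a regulator of G protein signalling (1.68, SE 0.26, limma Benjamini-Hochberg adjusted p = 0.0330).

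Other members were higher in EGFR-High than in NGFR-High. An intronic region of the tetraspanin gene TSPAN9 (chr12:3104730-3105409) had 17.9, 12.3 and 19.1 in EGFR-High, 7.95, 4.81 and 6.58 in NGFR-High and 13.1, 8.03 and 13.9 in EGFR-NGFR-High. NGFR-High lay below both other sorts here, which overlapped, and the log2 difference EGFR-High minus NGFR-High was 1.59 (SE 0.26, limma Benjamini-Hochberg adjusted p = 0.0276). Regions nearest RIN2 and TRIB2 were also called higher, by 1.42 and 1.41. A region in an intron of MITF (chr3:69848073-69848908) joined them at 1.01 (SE 0.19, limma Benjamini-Hochberg adjusted p = 0.0435), with 13.7, 11.8 and 9.79 in EGFR-High, 7.56, 5.25 and 7.99 in NGFR-High and 9.82, 6.62 and 7.94 in EGFR-NGFR-High. EGFR-NGFR-High was lower than EGFR-High at regions nearest IL23R (−1.01), SNTB2 (−0.93) and SLC44A3 (−0.93). None of these 7 regions held an AP-1 match within its window, whereas 43.8% of all members with 9 of 9 libraries did. The 7 are the largest differences and the MITF region of a list. AP-1 was not counted over all members called.

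Genes were assigned to members by the nearest protein-coding start within 50 kb. This gave 2275 members and 1889 genes, of which 1596 had 1 member, 232 had 2 and 61 had 3 or more. CD44, the hyaluronan receptor, had the most, with 6 members, and WWTR1, EPS8, SMAD3, S100A10, IGFBP7 and PRICKLE2 had 5 each. The 6 CD44 members lay 3592 to 14104 bases from a start, all in introns, with median fold enrichments of 4.96 to 7.16. The integrin gene ITGB5, the phosphodiesterase genes PDE4B and PDE4D, PHLDB2, MYEOV and ST8SIA1 were among those with 4.

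Genes near members were more often higher in primed cells. In untreated WM989 cells, the sums of UMI counts per state and replicate held 93874834 to 344945114 UMIs, and levels are given as CPM, counts scaled to the same total. Where the level reached 20 CPM in at least 1 of the states, 188 of 723 genes near members (26.0%) had a primed to drug-susceptible ratio above 2, against 10.3% of all 6187 such genes and 8.29% of the 5165 near regions open in all sorts and no member. A ratio below 0.5 was found for 65 (8.99%), against 6.43% of all. The median log2 ratio was 0.21 near members and −0.02 near regions open in all sorts only. By the methods these cells were grown from a mixed well and a well sorted for high EGFR and NGFR, so that state and sorted well are mixed in the ratios. The cells are 1 sample and their states were called by the authors from the same counts, so no test was made, and ratios in r1 and r2 are given as a check within the sample.

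The share rose with the number of members near a gene. It was 23.8% of 601 genes with 1 member, 33.3% of 90 with 2, 44% of 25 with 3 or 4, and 57.1% of 7 (4 genes) with 5 or more. The share below 0.5 rose too, to 36% of the 25 genes with 3 or 4 members, and was 0 of 7 above that. Genes near Mix-only regions and no member (251) were above 2 in 9.56% and below 0.5 in 10.4%.

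**Figure D4:**
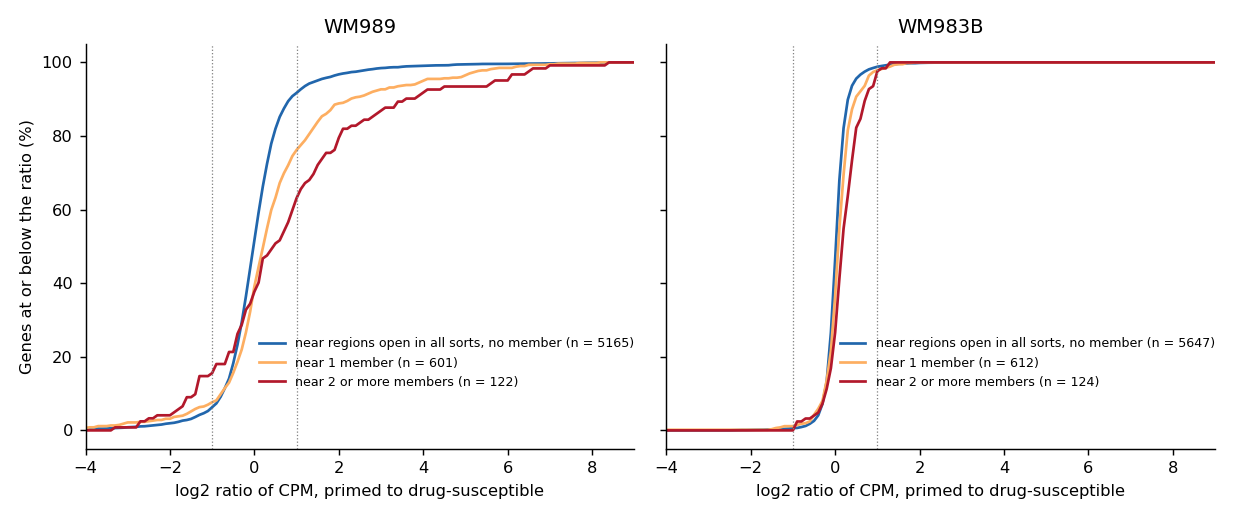
Cumulative percent of genes (vertical) at or below a log2 ratio of CPM, primed to drug-susceptible (horizontal), in WM989 and WM983B, for genes near regions open in all sorts and no member, near 1 member and near 2 or more; dotted lines mark ratios of 0.5 and 2. In WM989 the curves of genes near members lie to the right at ratios above 1, with 26.0% above 2, and to the left at low ratios, with 15.6% of genes near 2 or more members and 7.65% near 1 at or below 0.5 against 6.31%. In WM983B 2.17% were above 2.

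The largest ratios near a member were those of CCN4, EREG, SRGN, TMEM158 and PECAM1. CCN4, a matricellular Wnt target, reached 39.9 CPM in the primed state against 0.124 CPM in the other, 323-fold more (443 in r1, 220 in r2). The EGFR ligand EREG followed at 287 (407 and 207), the granule proteoglycan SRGN at 203 (321 and 139), TMEM158 at 142 (205 and 91.4) and the adhesion molecule PECAM1 at 125 (135 and 110). In the opposite direction, MLANA, the melanosome antigen, was 28.5-fold lower in primed cells (21.8 in r1, 44.03 in r2), with 59.0 CPM against 1683 CPM. C2orf88 was 26.3-fold lower, the pigment enzyme gene TYR 19.5-fold, CYP7B1 17.9-fold and RXRG, a retinoid receptor of neural crest cells, 14.98-fold. Members thus lay beside genes of both directions.

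Among the genes with 5 or 6 members the levels differed as widely. IGFBP7, a secreted growth factor binding protein, had 1534 CPM against 22.4 CPM, a ratio of 68.4 (81.0 and 55.0). CD44 had 831 CPM against 142 CPM, a ratio of 5.84 (5.58 and 5.93), and SMAD3 a ratio of 3.55 (2.66 and 3.90). PRICKLE2, of planar polarity, had 3.24, S100A10 1.88 and WWTR1 1.60. EPS8, a substrate of EGFR signalling, had 0.640 (0.624 and 0.613).

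In WM983B, with 731 primed and 718 drug-susceptible cells in 1 library, differences between the states were smaller. A ratio above 2 was found for 16 of 736 genes near members (2.17%), against 1.30% of all 6712 genes, and a ratio below 0.5 for 7 (0.951%), against 0.641%. Within 10 kb, 0.312% of genes near members had a ratio below 0.5, against 0.641% of all. With a minimum of 5 CPM, 3.57% had a ratio above 2, against 1.71% of all. These are few genes, and no test was possible with 1 sample.

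Members were counted near the genes of lists of the states and of pathways, chosen with earlier results of these data known. Over all protein-coding genes 9.79% had a member. Matrix and integrin genes had members in 12 of 22, growth factors and receptors in 12 of 24, the primed melanoma state in 6 of 15, the melanocytic or drug-susceptible state in 4 of 14, TGF-beta in 6 of 17, TEAD/YAP in 4 of 13, AP-1 and bZIP factors in 4 of 12, PI3K in 3 of 12, inflammation in 2 of 13 and neural crest and EMT factors in 2 of 15. The primed list is in part a choice that the study made on such cells and is no independent evidence of its direction. Of the markers of other cell types, 6 of 8 fibroblast genes had a member (COL1A1, COL1A2, COL3A1, PDGFRA, PDGFRB and THY1) and 0 of 6 leukocyte genes. In WM989 RNA, 3 of the 8 fibroblast genes reached 20 CPM and 2 of these had a ratio above 2, and 1 of the 6 leukocyte genes reached it, with a ratio above 2. Their part in the result was not tested.

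Matrix genes had members 4097 to 44548 bases from their starts, and 7 of the 14 held AP-1, as did 41.2% of all members. The highest was intergenic, 39003 bases from COL5A1, a fibrillar collagen gene (chr9:134602357-134603162), with 8.54, 4.26 and 5.87 in EGFR-High, 16.7, 9.62 and 12.2 in NGFR-High and 27.4, 17.5 and 19.8 in EGFR-NGFR-High, where each sort was above the one before. Its log2 difference EGFR-NGFR-High minus EGFR-High was 1.56 (SE 0.27, limma Benjamini-Hochberg adjusted p = 0.0379). The FN1 member, 24839 bases from the fibronectin gene, had 7.34 to 11.1, 11.8 to 16.3 and 10.4 to 24.99 in the same order. All 9 matrix genes near a member with at least 20 CPM had a primed ratio above 2, as had 15 of 17 over the whole list. FN1 had a ratio of 38.2, MMP1, an interstitial collagenase, of 90.5, and COL6A1 of 30.5.

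Growth factor genes had 14 members, 7 with AP-1, against 41.2% of all members. The PDGFA member had 8.96, 6.62 and 5.38 in EGFR-High, 17.9, 11.8 and 15.5 in NGFR-High and 28.0, 14.2 and 16.4 in EGFR-NGFR-High, and the FGF1 member 8.54, 5.67 and 3.92, then 13.9, 15.3 and 14.6, then 17.6, 14.2 and 9.43. In both, every EGFR-High library was below every other marker-high library. The difference from NGFR-High missed the threshold in both, at −0.88 (SE 0.24, limma Benjamini-Hochberg adjusted p = 0.115) for PDGFA and −1.10 (SE 0.26, limma Benjamini-Hochberg adjusted p = 0.0785) for FGF1. Of 9 growth factor genes near a member with at least 20 CPM, 8 had a ratio above 2, as had 10 of 12 over the whole list. Among the 8 were PDGFA at 7.36, FGF1 at 14.7, VEGFC at 41.1 and NRG1 at 37.0. The EGFR member, in an intron 24253 bases from a start, was low, at 3.29 to 12.8.

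Of the 14 melanocytic genes, 4 had a member (28.6%, against 9.79% of all protein-coding genes), and none of their 5 members held an AP-1 match. AP-1 was in 41.2% of all members, in 2 of 7 of the primed list and in 2 of 9 of the fibroblast list. MITF had 2 members, and MLANA, TYR and OCA2 had 1 each, at median fold enrichments of 4.96 to 8.10. The MLANA member, 27727 bases from its start, had 10.7, 8.51 and 8.32 in EGFR-High, 6.76 and 7.87 in NGFR-High with 1 library lacking a peak, and 10.7, 7.09 and 5.95 in EGFR-NGFR-High. All 3 melanocytic genes near a member with at least 20 CPM, MITF among them at 6.86-fold lower, had a ratio below 0.5 in primed cells, as had 10 of 11 over the whole list.

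TGF-beta genes had 11 members, of which SMAD3 accounted for 5, and 2 held AP-1 (41.2% of all members did). The highest lay in an intron of SMAD3 (chr15:67106919-67107407), with 6.62 to 7.68 in EGFR-High, 7.99 to 17.1 in NGFR-High and 12.9 to 15.2 in EGFR-NGFR-High. TEAD/YAP genes had 8, of which WWTR1 accounted for 5. CCN2, AMOTL2 and TEAD1 had 1 each.

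A larger share of the genes near members than of all genes was called higher in recombinant TGFB1. UMI counts were summed over all cells of each of the 8 libraries (70239657 to 122420544 UMIs) and tested by edgeR with the replicate as a term, so a change can be one of expression or of the share of primed cells. By the authors' states that share was 2.26% and 4.47% in Control r1 and r2, 29.1% and 31.3% in TGFB1, 2.26% and 4.32% in TGFBRi and 0.647% and 1.21% in PI3Ki, and its part in the result was not tested. Of 1500 tested genes near members, edgeR with Benjamini-Hochberg adjustment called 464 (30.9%) higher and 235 (15.7%) lower in TGFB1 than in Control, against 18.3% and 14.9% of all 13691 protein-coding genes tested. With more members the share higher rose, from 28.6% of genes with 1 member to 38.0% with 2, 56.0% with 3 or 4 and 71.4% with 5 or more (5 of 7), against 16.9% of genes near regions open in all sorts only. Without TGFB1 r1, 129 were called lower (8.45%), against 7.41% of all.

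PI3Ki moved more of these genes down than up. In PI3Ki edgeR called 81 (5.40%) higher and 256 (17.1%) lower, against 6.25% and 8.46% of all. In TGFBRi it called 47 higher and 47 lower (3.13% each), against 1.34% and 1.68%. The 3 comparisons share the Control libraries. Without the replicate term edgeR called 3 and 6 in TGFBRi (0.0803% and 0.197% of all protein-coding genes) and 25 and 101 in PI3Ki (1.57% and 2.64% of all). Single libraries moved these counts. Without Control r1, Control r2, PI3Ki r1 and PI3Ki r2, PI3Ki called 40, 32, 41 and 22 higher and 166, 130, 141 and 119 lower. Over all protein-coding genes the shares fell as well, to 1.52% to 3.01% higher and 3.06% to 4.99% lower, beside 1.44% to 2.69% and 7.80% to 10.9% near members. TGFBRi called 22 and 15 higher without Control r1 and Control r2 (1.44% and 0.984%, against 0.674% and 0.409% of all), and 21 lower without Control r2 (1.38% against 0.631%). Without TGFBRi r1 it called 86 lower and 68 higher, or 5.64% and 4.46%, against 3.83% and 3.85% of all.

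**Figure D5:**
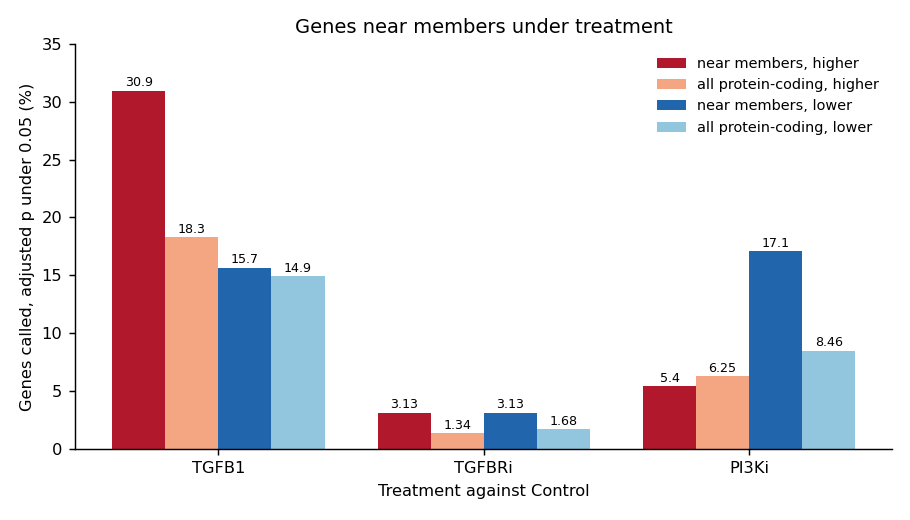
Percent of tested genes called higher or lower than Control by edgeR (adjusted p under 0.05) in TGFB1, TGFBRi and PI3Ki, for the 1500 genes near members and all 13691 protein-coding genes. Under TGFB1 30.9% of genes near members were higher against 18.3% of all, and under PI3Ki 17.1% were lower against 8.46%.

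The largest rises under TGFB1 near a member were those of COL1A1, a fibrillar collagen gene, the fibronectin gene FN1 and BASP1. COL1A1 had 1.099 and 1.59 CPM in Control and 43.4 and 46.0 CPM in TGFB1, a log2 fold change of 5.06 (SE 0.12, edgeR with Benjamini-Hochberg adjustment, adjusted p = 4.3e-18). FN1 had 99.7 and 158 CPM in Control and 2655 and 2661 CPM in TGFB1, a log2 fold change of 4.42 (SE 0.13, edgeR Benjamini-Hochberg adjusted p = 7.25e-17). BASP1, a membrane protein of growth cones, rose by 3.79. Under PI3Ki COL1A1 fell to 0.223 and 0.260 CPM, by 2.48 on the log2 scale (SE 0.25, edgeR Benjamini-Hochberg adjusted p = 6e-07). Its levels in Control and in PI3Ki were both near the floor. Of 22 matrix and integrin genes, 19 were called higher and 0 lower in TGFB1, and 18 lower and 0 higher in PI3Ki, and TGFBRi called 3 lower. Fibroblast markers moved with them, 4 of 6 tested being higher in TGFB1 and 3 lower in PI3Ki, and their part in the result was not tested. Over all protein-coding genes tested, 18.3% were higher in TGFB1 and 8.46% lower in PI3Ki.

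IGFBP7 and MMP1 fell most with PI3Ki beside COL1A1. IGFBP7 had 8.36 and 22.6 CPM in Control, 102 and 134 CPM in TGFB1, 6.91 and 12.2 CPM in TGFBRi, and 2.22 and 5.01 CPM in PI3Ki. Its r1 lay below its r2 in all 4 conditions. Its log2 fold changes were 3.05 (SE 0.14) in TGFB1, −0.64 (SE 0.15) in TGFBRi and −2.04 (SE 0.16) in PI3Ki, all called by edgeR with Benjamini-Hochberg adjustment (adjusted p = 1.13e-13, 0.0175 and 1.46e-08). MMP1 changed by −2.71 (SE 0.22, edgeR Benjamini-Hochberg adjusted p = 1.88e-08) in PI3Ki and by 2.67 (SE 0.15, edgeR Benjamini-Hochberg adjusted p = 6.17e-12) in TGFB1.

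Of the other genes with many members, CD44 rose in TGFB1 from 145 and 156 CPM to 222 and 246 CPM, by 0.64 on the log2 scale (SE 0.07, edgeR Benjamini-Hochberg adjusted p = 8.05e-08). PRICKLE2 rose by 1.09, S100A10 by 0.33 and WWTR1 by 0.24, all past the threshold. SMAD3, at 0.03 (SE 0.07), and EPS8, at −0.12 (SE 0.06), did not pass it. SMAD3 was higher in TGFBRi by 0.35 (SE 0.07, edgeR Benjamini-Hochberg adjusted p = 0.00617) and lower in PI3Ki by a log2 fold change of −0.31 (SE 0.07, edgeR Benjamini-Hochberg adjusted p = 0.00565).

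Genes near members that fell in TGFB1 were led by FRMD4B (−1.38), the apoptosis activator HRK (−1.13) and RXRG (−0.99). PI3Ki raised APOD, a lipocalin (1.25), CYP7B1 (0.86) and OSGIN1 (0.65), of which APOD rose in TGFB1 as well, by 0.62. TGFBRi raised VGF, a secreted neuropeptide precursor, by 0.86 (SE 0.13, edgeR Benjamini-Hochberg adjusted p = 0.000278), FRZB by 0.71 and SOD3 by 0.49, and lowered LMO7 and KCNAB1 (−0.62 and −0.60). Counts over whole lists take in genes without a member. Of the 14 melanocytic genes, 4 of them near a member, 7 were lower and 2 higher in TGFB1, and 1 lower and 6 higher in PI3Ki. Of the 15 of the primed list, 6 of them near a member, 14 were higher in TGFB1 and 14 lower in PI3Ki. Over all protein-coding genes tested, 18.3% were higher and 14.9% lower in TGFB1, and 6.25% and 8.46% in PI3Ki.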

How the data were processed

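ATAC-seq of 12 sorted WM989 libraries and single-cell RNA-seq of WM989 and WM983B were used. The authors deposited MACS2 2.1.1.20160309 peak lists called in each library, after alignment to hg38 with Bowtie2 2.3.4.1, filtering with SAMtools 1.1 and removal of duplicates; the parameters of the peak caller were not given in the sources used here. The deposited lists give each peak's height as a ratio (fold enrichment) to local background, and its q-value as −log10. The counts deposited by the authors are UMIs per gene and cell from Cell Ranger, after filters in Seurat on genes and mitochondrial reads; states, libraries and replicates are the authors' labels. Replicates of a sort were not stated to come from separate cultures, so their p-values measure only the spread between these samples, which may be technical. The doublets are as the authors' filter on genes left them.

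The members, lists and tests were chosen with earlier results of these data known. Intervals were merged over all libraries (1 base or more), and all 79 contigs of the lists were found in the hg38 genome used for sequences; peaks ran past the end of 4 short unplaced contigs. Motifs were searched on both strands with pysam 0.24.0 in 200 bases around the summit of the highest peak. Gene positions were GENCODE's on hg38, matched by symbol or synonym for 99.4% to 99.5% of genes near members. Peak height was tested with limma 3.58.1 and summed counts with edgeR 4.0.16 (filterByExpr, TMM factors 0.941 to 1.05, quasi-likelihood, two-sided) in R 4.3.3, with Benjamini-Hochberg adjustment over all features and a threshold of 0.05. Both steps were tested on simulated data. DESeq2 1.42.0 was an alternative. The replicate was a term of the edgeR fit because cells of 1 well were split over the treatments, and deviations of same-numbered libraries from their treatment means correlated at 0.257 to 0.365.

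Named were the 15 highest members, the 15 genes with the most members, the highest 3 members of each list, the 8 highest within 1 kb of a start, the 3 largest called differences of each contrast and direction, with a mean of at least 10 CPM for RNA, and the 5 largest CPM ratios in each direction. Other genes of the lists were given as values.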

Additional observations from a re-analysis of the deposited data

How the results depend on the processing

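Members numbered 2504 when at least 8 of 9 marker-high libraries were needed, 1302 with 9 of 9, and 4207 to 6232 when libraries or replicate numbers were left out. Over 21 other definitions of members, added after seeing the data, the AP-1 share was 35.6% to 46.0%, against 16.2% to 16.9% in regions open in all sorts. It was 46.7% in windows of 400 bases (22.1% in regions open in all sorts), 35.8% around midpoints (13.1%) and 43.8% in members with 9 of 9 (16.9%). Members within 1 kb of a start were 8.67% with the starts of all genes.

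For EGFR-High minus NGFR-High, no centring gave 10 members higher and 102 lower, and for EGFR-NGFR-High minus EGFR-High 255 and 1, beside 125 and 2139, and 2817 and 14 over all regions; a filter of 7 of 9 libraries and 2 in each sort gave 68 of 3269 members higher in the latter (339 of 99280 regions). Same-numbered ATAC libraries correlated at 0.050 to 0.194 and others at −0.163 to 0.0024, each library best with its own number, a hint of pairing from the data; the labels name no shared batch and the replicate 2 pairs were weak (0.050 to 0.064), so the numbers were not taken as pairs. With the replicate block the counts were 32 and 52, 82 and 5, and 0 and 0, beside 460 and 521, 449 and 71, and 0 and 0 over all regions. Left-out libraries gave 0 to 6 and 0 to 12 for the first contrast, 0 to 51 and 0 to 2 for the second (6 to 144 and 2 to 182, and 0 to 280 and 0 to 33 over all regions), and 0 in both directions for EGFR-NGFR-High minus NGFR-High. Of 156 alternatives of named regions 77 fell short of the threshold and none reversed. The cause was not tested.

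In WM989 28.2% of genes within 10 kb had a ratio above 2, and 23.7% to 26.1% when 1 replicate was left out; below 0.5 were 9.76% at 5 CPM, 10.5% at 1 CPM, 9.77% within 200 kb and 9.11% to 10.2% with 1 replicate left out. Over all genes these shares were 10.3%, 9.52% to 10.8%, 6.64%, 7.64%, 6.43% and 6.27% to 7.46% in the same order. In WM983B 3.57% were above 2 at 5 CPM (1.71% of all) and 0.312% below 0.5 within 10 kb (0.641%). Within 10 kb, where 650 genes were tested, edgeR called 210 and 101 genes (32.3% and 15.5%) in TGFB1, 23 and 17 (3.54% and 2.62%) in TGFBRi, and 38 and 123 (5.85% and 18.9%) in PI3Ki, against the same shares of all protein-coding genes as in the report. DESeq2 called 27 higher in TGFBRi (2.07%, 1.024% of all). With no replicate block the counts were 375 and 161 in TGFB1, 3 and 6 in TGFBRi, and 25 and 101 in PI3Ki, against 13.2% and 9.29%, 0.0803% and 0.197%, and 1.57% and 2.64% of all. Leaving out libraries gave 360 to 499 higher and 129 to 289 lower in TGFB1, 15 to 68 and 21 to 86 in TGFBRi, and 22 to 121 and 119 to 324 in PI3Ki, against 11.9% to 20.7% and 7.41% to 18.9%, 0.409% to 3.85% and 0.631% to 3.83%, and 1.52% to 8.998% and 3.06% to 11.9% of all. Of 198 alternatives of named genes 8 fell short of the threshold and none reversed.

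Low peaks limit the members. With −log10 q of at least 5 in every library 3183 regions fit the rule, and 36.6% of the members overlapped these; with the 100000 strongest intervals of each library 2775 did, and 18.6% overlapped. Peak lists hold no read counts, so the absence of a peak in Mix sets no limit on accessibility there. Left without a test, the WM989 and WM983B ratios cover 1 sample each.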

Other observations

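Members were spread unevenly over the chromosomes. They made up 2.36% of the regions of chromosome 18 and 2.26% of those of chromosome 4, but 0.763% of those of the gene-dense chromosome 19 and 1.13% on chromosome 22. Another member lay within 10 kb of 399 members (9.67%) and within 50 kb of 1111 (26.9%). No such count was made for other regions, so whether members lie closer together than these was not tested. FOX letters (TGTTTAC) were found in 3.88% of members and 2.56% of regions open in all sorts. E-box letters (CACGTG) were in 1.502% and 3.94%. NF-kB letters (GGGANTTCC) were in 1.04% and 0.994%.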
